A study of Rattus norvegicus with 244 samples.

Results

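The somatomotor cortex of rats was examined 28 days and 3 months after a moderate spinal cord injury, in 8 injured samples set against 3 sham-operated samples of the same times. The 8 injured samples were 4 at 28 d and 4 at 3 months. The sham samples were 2 at 28 d and 1 at 3 months. These 11 samples (33 arrays) were chosen by region, treatment and time from a series of 84 samples (244 arrays) of rat cortex and raphe, both of which send axons to the spinal cord. A second sham sample of cortex at 3 months was left out because its expression resembles raphe. A sham sample labelled raphe at 3 months, left out of the comparison with raphe, resembles cortex in turn, and whether the 2 were exchanged was not tested. Also used were 4 naive cortex samples, 24 cortex samples of injury or sham surgery at 4 h, 24 h, 7 d and 14 d, and 11 raphe samples of the chronic times. The labels give neither strain, sex nor age, do not state the spinal level of the injury or how it was made, and do not tell whether each sample is 1 animal. The p-values therefore measure the spread between these samples, which may be technical.

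The somatomotor cortex holds the cell bodies of the corticospinal tract, whose axons run from layer 5 to the spinal cord. A lesion of the cord cuts or damages these axons far from the cell body, and central neurons with axons cut at a distance usually mount a weaker growth response than peripheral neurons do. Weeks to months after the lesion, the acute inflammation in the cord has given way to scar and lasting disconnection. Only a small share of cortical cells are corticospinal neurons, and in whole tissue fewer cells of a type and less RNA per cell cannot be told apart.

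Each sample was hybridised to arrays of 3 types (A, B and C), each type carrying other probe sets. The deposited value is a linear signal per probe set, and differences below are injured minus sham on the scale log2(signal + 32), given with the standard error of the limma fit. That scale understates differences of weak probe sets. The array medians of the 11 samples ran from 201 to 283 on type A and from 299 to 392 on types B and C. On type A the medians were 265 to 283 in injured samples of 3 months, against 245 in the sham sample of 3 months. The actin 3′ over 5′ ratio of the 11 samples lay between 1.21 and 2.26. Correlations of log2 values between pairs of these samples lay between 0.931 and 0.967, so that no 2 arrays were copies.

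Markers of the labelled region were present in all 11 samples. Of 17 forebrain cortex genes tested, 15 were higher in each of the 11 samples than in every naive raphe sample, and the summed signal of the list was 106567 to 136808 in injured samples, against 125312 to 128043 in sham samples. The left-out sham sample summed to 44080. Cck, a neuropeptide of cortical neurons, had 3190.2 there, against 11387 to 14665 in the 3 sham samples. Of 8 brainstem genes, which mark the other region, the sum was 3815 to 4748 in injured samples, against 4352 to 4884 in sham samples and 22910 in the left-out sample. The left-out raphe sham sample had arrays of types B and C, and 9 forebrain genes on these summed to 73129 there, against 67861 to 69173 in naive cortex and 11084 to 15930 in naive raphe. The brainstem gene on these types, Slc17a6, had 945 there, against 283 to 650 in naive cortex and 7014 to 9112 in naive raphe.

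No probe set passed an adjusted p of 0.05 in the chronic comparison. With limma, 0 of 17246 probe sets were called (0.0%), and 764 (4.43%) had an unadjusted p under 0.05, of which 559 were higher and 205 lower in injured cortex. The smallest adjusted p was 0.0799. The median half-width of the unadjusted 95% interval of a difference was 0.430. For a typical probe set a smaller difference could not be told from 0 even before adjustment, and the adjusted threshold asks for more. Over the 8665 genes with a symbol, each given by its brightest probe set, the median difference was 0.01 and 51.2% of genes were higher in injured cortex. Genes with an unadjusted p under 0.05 made up 3.24% of all genes on the higher side and 1.15% on the lower side. The signals of all 8 injured samples lay above all 3 sham samples for 70 genes (0.808%) and below all 3 for 41 genes (0.473%).

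**Figure D1:**
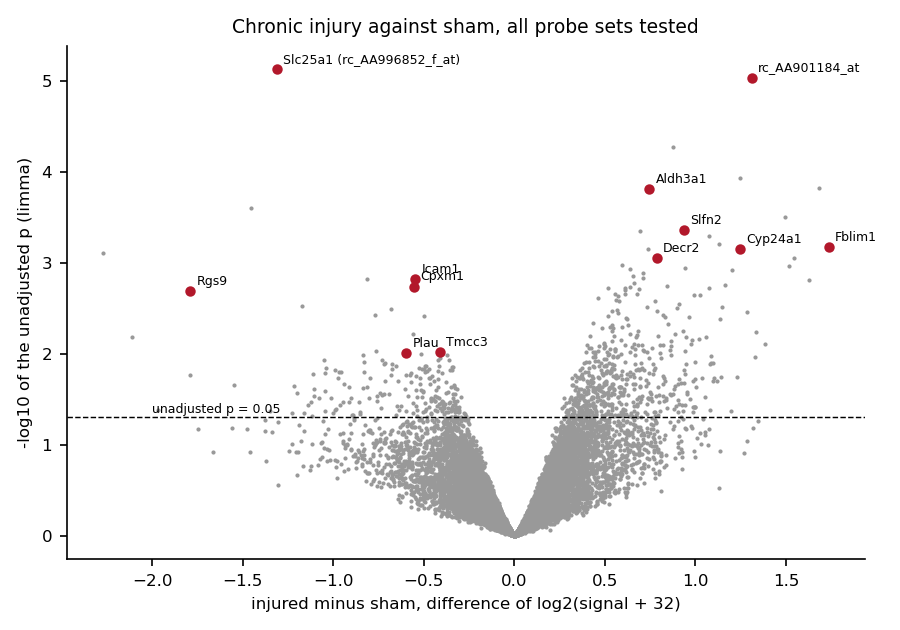
Difference of log2(signal + 32), injured minus sham, against −log10 of the unadjusted p from limma, for the 17246 probe sets tested in 8 injured and 3 sham cortex samples. Red points are the genes with the smallest p in each direction and the 2 probe sets with the smallest p of all, and 0 points passed an adjusted p of 0.05.

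The 2 probe sets with the smallest p, named here after their values were seen, were 1 of 3 tested for Slc25a1, the mitochondrial citrate carrier, and 1 without a gene symbol. The Slc25a1 probe set rc_AA996852_f_at had 117.5, 109, 97.2 and 76.4 at 28 d and 94.4, 107, 177 and 113 at 3 months in injured cortex, against 274 and 295 at 28 d and 363 at 3 months in sham cortex. The groups did not overlap, and the difference was -1.31 ± 0.17 (95% interval -1.69 to -0.93), with an adjusted p of 0.0799 in limma. The other Slc25a1 probe sets differed by -0.33 ± 0.32 and 0.14 ± 0.17, so the 3 probe sets of the gene disagreed. In naive cortex the first probe set had 135, 118, 92.3 and 209, below all 3 sham samples. The probe set rc_AA901184_at had 263.5, 147, 210.0 and 229.8 at 28 d and 213, 198, 196.5 and 259 at 3 months in injured cortex, against 47.3, 72.1 and 79.1 in the 3 sham samples. It differed by 1.31 ± 0.18 (95% interval 0.93 to 1.70), also with an adjusted p of 0.0799. Both lay above the 40th percentile of the array in only 3 of the 11 samples, the minimum for testing. For the Slc25a1 probe set these were the 3 sham samples, and for rc_AA901184_at 3 injured samples. Each thus entered the test only through the group where it was higher, so its difference is given as a description.

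Among genes higher in injured cortex, Aldh3a1 had the smallest p. It encodes an aldehyde dehydrogenase that clears reactive aldehydes. Its signal was 266, 190.4, 208 and 243 at 28 d and 288, 286.5, 292 and 295 at 3 months in injured cortex, against 148.5 and 128.2 at 28 d and 130.0 at 3 months in sham cortex. All 8 injured samples lay above all 3 sham samples, and the difference was 0.75 ± 0.14 (95% interval 0.45 to 1.04), adjusted p = 0.446 in limma. Naive samples, at 192, 265, 200.0 and 243, overlapped the injured samples and lay above the sham samples. In the fit with naive samples, the difference from naive was 0.17 ± 0.14 (95% interval -0.12 to 0.47) in injured and -0.61 ± 0.17 (95% interval -0.97 to -0.25) in sham cortex, and both share the naive samples.

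Slfn2, a Schlafen family gene known in mouse for keeping T cells quiescent, had signals between 159.6 and 357 (median 263) in injured samples, against 124, 60.9 and 181 in sham samples. It differed by 0.94 ± 0.19 (95% interval 0.51 to 1.36), and 7 of 8 injured samples exceeded every sham sample. Fblim1, which encodes a filamin-binding adaptor of cell adhesions, had signals between 235 and 944 (median 681) in injured samples, against 89.8, 267 and 111.5 in sham samples. In 7 of 8 injured samples it exceeded every sham sample. The Fblim1 difference was 1.74 ± 0.38 (95% interval 0.91 to 2.56), while its dimmer probe set differed by 0.20 ± 0.19. Cyp24a1, the enzyme that inactivates vitamin D, had signals between 108 and 393 (median 264) in injured samples, against 74.6, 92.9 and 93.5 in sham samples, without overlap. Its difference was 1.25 ± 0.28 (95% interval 0.65 to 1.85). It lay above the 40th percentile in 7 injured and 0 sham samples, so this difference is a description. Decr2, a peroxisomal enzyme of unsaturated fatty acid breakdown, had signals between 379.6 and 564 (median 468) in injured samples, against 326, 188 and 276 in sham samples, also without overlap, and differed by 0.79 ± 0.18 (95% interval 0.40 to 1.17). Its 2 other probe sets differed the other way, by -0.27 ± 0.42 and -0.41 ± 0.24. The adjusted p of these 4 genes ran from 0.769 to 0.856 in limma. Naive samples spanned 168 to 295 for Slfn2, 317 to 678 for Fblim1, 109 to 297 for Cyp24a1 and 169 to 585 for Decr2. For Fblim1 and Cyp24a1 every naive sample lay above the 3 sham samples and within the range of the injured ones. For Slfn2 and Decr2 the naive range reached below the highest sham sample.

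Among genes lower in injured cortex, Icam1 had the smallest p. It encodes an adhesion molecule through which leukocytes bind to endothelium. Its signal was 261, 197.5, 269 and 194 at 28 d and 208, 245, 227 and 246 at 3 months in injured cortex, against 331 and 349 at 28 d and 367 at 3 months in sham cortex. The groups did not overlap, and the difference was -0.55 ± 0.13 (95% interval -0.84 to -0.26), adjusted p = 0.866 in limma. Naive samples, at 309.8, 371.5, 341 and 283, lay above all 8 injured samples and overlapped the sham samples. The difference from naive was -0.45 ± 0.12 (95% interval -0.70 to -0.20) in injured and 0.09 ± 0.15 (95% interval -0.22 to 0.41) in sham cortex. A second, dimmer Icam1 probe set differed by 0.14 ± 0.37.

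Rgs9, a regulator of G protein signalling that is abundant in striatum, had signals between 19.7 and 214 (median 46.0) in injured samples, against 250.2, 342.5 and 268 in sham samples. It differed by -1.79 ± 0.45 (95% interval -2.77 to -0.80). It lay above the 40th percentile of the array only in the 3 sham samples, so that it entered the test through the group where it was higher, and its difference is a description. Over 13 striatum genes the summed signal was 13210 to 19083 in injured samples, against 16532 to 18002 in sham samples, and the part of striatal tissue in the Rgs9 difference was not tested. Cpxm1, a carboxypeptidase-like secreted protein, had signals between 170.3 and 231 (median 203.5) in injured samples, against 269.9, 302 and 357 in sham samples, a difference of -0.55 ± 0.14 (95% interval -0.85 to -0.25). It lay above the 40th percentile in 2 injured and 3 sham samples, so that it too entered the test through the sham group, and its difference is a description. Tmcc3, a coiled-coil membrane protein, had signals between 738 and 942 (median 852) in injured samples, against 1182, 1139 and 1078 in sham samples, a difference of -0.41 ± 0.13 (95% interval -0.70 to -0.12), and its dimmer probe set differed by -0.19 ± 0.31. Neither Rgs9, Cpxm1 nor Tmcc3 overlapped between the groups. Plau, the urokinase plasminogen activator, overlapped between the groups, with signals between 92.0 and 229.9 (median 163) in injured samples and 190.5, 247 and 298 in sham samples, and differed by -0.60 ± 0.19 (95% interval -1.02 to -0.17). The adjusted p of these 4 genes lay between 0.866 and 0.991 in limma. Naive samples spanned 54.2 to 308.5 for Rgs9, 170.1 to 333 for Cpxm1, 949.5 to 1030 for Tmcc3 and 80.1 to 202 for Plau. For Tmcc3 every naive sample lay below the 3 sham samples.

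**Figure D2:**
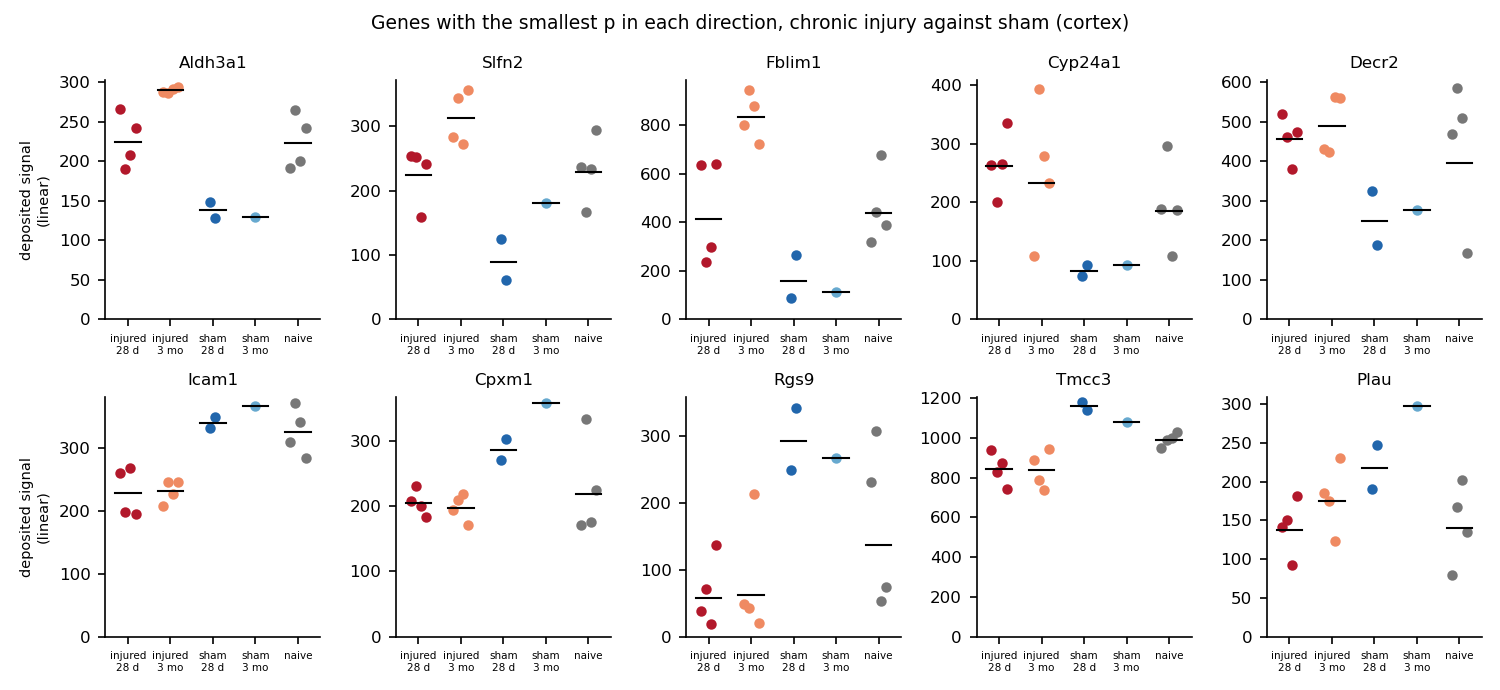
Deposited signal of each sample for the 5 genes with the smallest p on the higher side (top row) and on the lower side (bottom row), in injured cortex at 28 d and 3 months, sham cortex at 28 d and 3 months, and naive cortex. Points are samples and bars are group means taken on the log2(signal + 32) scale. The Aldh3a1 panel shows 8 injured samples above 3 sham samples, with naive samples level with the injured ones.

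Gene lists were described by counts and medians over the brightest probe set of each gene, with no test of a list. Of 15 corticospinal and layer 5 genes tested, 6 were higher and 9 lower in injured cortex, with a median of -0.07 beside 0.01 over all genes. None was called, 1 was higher and 1 lower at an unadjusted p under 0.05. Crim1, a membrane protein that marks corticospinal neurons in mouse, had 1441, 878, 775 and 735 at 28 d and 739.9, 854, 540.3 and 472 at 3 months in injured cortex, against 372 and 675 at 28 d and 352 at 3 months in sham cortex. The groups overlapped in the 28 d sham sample of 675, and the difference was 0.82 ± 0.25 (95% interval 0.26 to 1.38). Bhlhe40, a transcriptional repressor, differed by -0.49 ± 0.21 (95% interval -0.95 to -0.02) and by -0.07 ± 0.17 on its other probe set. The neurofilament genes Nefl and Nefh, which form the axonal cytoskeleton, differed by -0.26 ± 0.12 (95% interval -0.52 to 0.0035) and -0.34 ± 0.19 (95% interval -0.75 to 0.07). Their other probe sets differed by -0.19 ± 0.15 and -0.36 ± 0.15. Nefl had signals between 5714 and 7643 (median 6433) in injured samples, against 7704, 7773 and 7996 in sham samples, so that all 8 injured samples lay below all 3 sham samples by a small margin. Naive samples, at 6006, 4809, 4884 and 5490, also lay below all 3 sham samples, within or below the injured range.

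Of 39 axon growth and regeneration genes tested, 18 were higher and 21 lower, with a median of -0.02, and 0 were called. By brightest probe sets, only Klf7, a transcription factor that promotes axon growth, had an unadjusted p under 0.05. It had signals between 794 and 1368 (median 1222) in injured samples, against 719.8, 886 and 836 in sham samples, and differed by 0.44 ± 0.17 (95% interval 0.07 to 0.80). Its 2 other probe sets differed by -0.25 ± 0.18 and -0.03 ± 0.18. Its naive samples, at 1370.3, 1564, 1504 and 1291, lay above all 3 sham samples, as did 7 of 8 injured samples. Nrp1, a semaphorin receptor of growing axons, differed by -0.38 ± 0.18 (95% interval -0.77 to 0.0012), L1cam, an axonal adhesion molecule, by -0.21 ± 0.12 (95% interval -0.48 to 0.06), and Rhoa, the GTPase through which myelin inhibitors act, by 0.24 ± 0.14 (95% interval -0.07 to 0.54). The members ran from -0.38 to 0.62, beside a median half-width of the interval of 0.40.

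Of 38 neurotrophic factor and receptor genes, 19 were higher and 19 lower, with a median of 0.01, and 0 were called. Fgf2, a growth factor of neurons and glia, had 143, 136, 166.5 and 212 at 28 d and 330.2, 283, 236 and 315 at 3 months in injured cortex, against 156.5 and 66.1 at 28 d and 143 at 3 months in sham cortex. All 4 injured samples of 3 months and 2 of 4 at 28 d stood above every sham sample. Naive samples, at 254.5, 331, 224.5 and 230, also stood above every sham sample. The Fgf2 difference was 0.65 ± 0.21 (95% interval 0.20 to 1.10), while a second Fgf2 probe set differed by 0.079 ± 0.33. Its receptor Fgfr1 differed by -0.54 ± 0.21 (95% interval -1.01 to -0.08) on the brightest probe set and by -0.05 ± 0.16 and -0.04 ± 0.20 on the 2 others. Gdnf, which keeps motor neurons alive, differed by -0.67 ± 0.39 (95% interval -1.53 to 0.19), and Igfbp5, an insulin-like growth factor binding protein, by -0.40 ± 0.24 (95% interval -0.93 to 0.13).

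Genes of neuronal signalling showed single members at low unadjusted p and list medians close to that of all genes. Of 31 glutamate, GABA and glycine receptor genes, 19 were higher and 12 lower, with a median of 0.04. Grin3a, an NMDA receptor subunit that lowers calcium entry, had 203, 179, 149.7 and 247 at 28 d and 482, 509.6, 353 and 422 at 3 months in injured cortex, against 206 and 53.9 at 28 d and 60.5 at 3 months in sham cortex. The 28 d samples overlapped with sham and the 3 months samples did not. Naive samples, at 64.9, 363, 479 and 401.5, spanned from the sham level into the range of the injured samples of 3 months. Grin3a differed by 1.28 ± 0.35 (95% interval 0.51 to 2.05), while a second probe set differed by -0.051 ± 0.25. The AMPA receptor subunit Gria4 differed by 0.64 ± 0.21 (95% interval 0.19 to 1.09), and by 0.94 ± 0.34 and -0.12 ± 0.22 on its 2 other probe sets. The kainate receptor subunit Grik3 differed by -0.98 ± 0.36 (95% interval -1.76 to -0.20), and the glycine receptor subunit Glra1 by -0.99 ± 0.43 (95% interval -1.94 to -0.04). Grik3 lay above the 40th percentile of the array in 1 injured and 2 sham samples, the minimum for testing, so its difference is a description. Its sham samples had 98.3, 456 and 387.

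Of 36 voltage-gated ion channel genes the median was 0.01, and 2 were higher and 0 lower at an unadjusted p under 0.05. These were Cacna2d1, the calcium channel subunit that gabapentin binds, at 0.67 ± 0.25 (95% interval 0.12 to 1.22), and Cacna1e, the R-type calcium channel, at 0.69 ± 0.29 (95% interval 0.06 to 1.32). The channel gene Kcnma1 differed by 0.34 ± 0.25 on its brightest probe set. Its dimmer probe sets differed by 1.06 ± 0.32, at an unadjusted p of 0.0065 in limma, and by 0.91 ± 0.48. Cacna2d1 had signals between 1804 and 3251 (median 2211) in injured samples, against 2369, 1591 and 889 in sham samples, so that 2 of the 3 sham samples lay below all injured samples and 1 lay among them. Of 34 synaptic vesicle genes the median was -0.01, and Unc13b, which primes vesicles for release, differed by 0.77 ± 0.20 (95% interval 0.33 to 1.22). Unc13b lay above the 40th percentile of the array in 6 injured and 0 sham samples, so its difference is a description. Of 21 GABA neuron genes the median was -0.06 with 0 at an unadjusted p under 0.05, and Sst differed by -0.25 ± 0.18 (95% interval -0.65 to 0.15). Of 20 neuropeptide precursors the median was -0.04, and Nmb, the neuromedin B precursor, differed by 0.57 ± 0.23 (95% interval 0.07 to 1.08).

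Of 27 immediate early and activity-induced genes, 13 were higher and 14 lower, with a median of -0.01 and 0 at an unadjusted p under 0.05. Nptx2, a synaptic pentraxin made by active neurons, differed by -0.33 ± 0.18 (95% interval -0.71 to 0.05), Rgs2, a regulator of G protein signalling, by 0.47 ± 0.22 (95% interval -0.01 to 0.96), and Dusp1, a phosphatase that ends MAP kinase signalling, by 0.46 ± 0.26 (95% interval -0.11 to 1.02). Dimmer probe sets of Dusp1 differed by 0.74 ± 0.30 and 0.27 ± 0.39, and that of Nptx2 by -0.92 ± 0.52. Of 18 glucocorticoid-responsive genes the median was 0.11. Cdkn1a, the cell cycle inhibitor p21, differed by -0.54 ± 0.23 (95% interval -1.05 to -0.02), with 6 of its 11 signals above the 40th percentile of the array.

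Glial and immune lists stayed close to all genes in their medians. Of 23 astrocyte genes, 6 were higher and 17 lower, with a median of -0.08. Mt2A, a metallothionein, differed by 0.39 ± 0.17 (95% interval 0.02 to 0.76), and Fabp7, a fatty acid binding protein of immature astrocytes, by -0.36 ± 0.16 (95% interval -0.71 to -0.02). Of 23 microglia and macrophage genes, 14 were higher and 9 lower, with a median of 0.05. Cd53, a leukocyte tetraspanin, differed by 0.52 ± 0.20 (95% interval 0.08 to 0.96), Ctss, a lysosomal protease of microglia, by 0.28 ± 0.15 (95% interval -0.05 to 0.61), and Aif1, the microglial marker Iba1, by 0.25 ± 0.16 (95% interval -0.10 to 0.61). Cd53 lay above the 40th percentile of the array in 4 injured and 0 sham samples, so its difference is a description. Ctss had signals between 5400.5 and 8656.5 (median 7802) in injured samples, against 6505, 5752 and 5956 in sham samples, with 7 of 8 injured samples above every sham sample. Naive samples, at 9018.5, 7583.5, 9794 and 7415, also lay above every sham sample.

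Of 23 interferon and antigen presentation genes the median was 0.04. Ifitm3, an interferon-induced membrane protein, had 3071, 2712, 3272 and 2456 at 28 d and 4269, 4915.5, 5228 and 5057 at 3 months in injured cortex, against 2866 and 2316 at 28 d and 2971 at 3 months in sham cortex. Its injured samples of 3 months lay above all sham samples, those of 28 d overlapped, and the difference was 0.36 ± 0.16 (95% interval 0.01 to 0.70). This was seen on 1 of 4 probe sets, the other 3 differing by -0.11, -0.04 and 0.08. Tap1, which loads peptides for antigen presentation, differed by -0.32 ± 0.14 (95% interval -0.63 to 0.00034). Of 23 oligodendrocyte and myelin genes, 10 were higher and 13 lower, with a median of -0.02 and 0 at an unadjusted p under 0.05.

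Of 32 extracellular matrix and perineuronal net genes, 13 were higher and 19 lower, with a median of -0.03. Timp3, an inhibitor of matrix metalloproteases, had 915, 1083, 1272 and 1293 at 28 d and 891, 1022.5, 1125 and 1207 at 3 months in injured cortex, against 742 and 807 at 28 d and 663 at 3 months in sham cortex. The groups did not overlap, the difference was 0.57 ± 0.15 (95% interval 0.25 to 0.89), and the adjusted p was 0.866 in limma. The other 4 Timp3 probe sets tested differed by 0.076 to 0.59, all positive. Plat, the tissue plasminogen activator, had signals between 373 and 791 (median 550.0) in injured samples, against 581, 337 and 223 in sham samples, and differed by 0.64 ± 0.19 (95% interval 0.22 to 1.05). Plat and Plau, the 2 plasminogen activators, differed in opposite directions.

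Among housekeeping lists, the medians were 0.03 for 65 respiratory chain genes, 0.08 for 50 ribosomal protein genes, -0.02 for 36 proteasome genes, -0.09 for 26 heat shock genes and 0.07 for 24 cholesterol and fatty acid synthesis genes. Ndufv3, a subunit of respiratory complex I, differed by 0.44 ± 0.13 (95% interval 0.16 to 0.71), while its other probe set differed by -0.52 ± 0.41. Ndufb11, of the same complex, differed by 0.52 ± 0.21 (95% interval 0.06 to 0.98) and by 0.09 ± 0.14 on its other probe set. Atp5f1c, a subunit of ATP synthase, differed by 0.32 ± 0.12 (95% interval 0.06 to 0.57). Psme1, the proteasome activator induced by interferon gamma, had signals between 3049 and 6038 (median 4566) in injured samples, against 7469, 7464 and 5148 in sham samples, and differed by -0.57 ± 0.20 (95% interval -1.02 to -0.13). Its 3 other probe sets differed by -0.32 to 0.12. The ribosomal proteins Rpl26 and Rpl14 differed by 0.32 ± 0.12 (95% interval 0.06 to 0.59) and 0.41 ± 0.18 (95% interval 0.03 to 0.80), and a second Rpl26 probe set by -0.01 ± 0.12. None of the 28 lists held a called gene.

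Blood markers had the highest median of any list, 0.33 over 9 genes, of which 7 were higher and 2 lower. Hba-a1 and Hbb, the globins of red cells, differed by 0.48 ± 0.23 (95% interval -0.03 to 0.99) and 0.42 ± 0.22 (95% interval -0.06 to 0.91), and Alas2, the heme synthesis enzyme of red cells, by 0.33 ± 0.16 (95% interval -0.02 to 0.68). The summed signal of the list was 50579 to 101168 in injured samples, against 43984 to 55993 in sham samples. Its part in the differences of leukocyte genes such as Cd53 was not tested. The brainstem list had the lowest median, -0.27 over 8 genes, of which 2 were higher and 6 lower. Of these 8, 5 were lower in naive cortex than in naive raphe, and Glra1 and Slc6a5, a glycine transporter, were among the others. Prph, a neurofilament-like protein of neurons with peripheral axons, differed by -0.83 ± 0.27 (95% interval -1.43 to -0.24) and had signals between 84.3 and 299 (median 145) in injured samples, against 376, 240.3 and 317 in sham samples. Medians of the other lists were 0.02 for 20 serotonin and monoamine genes, -0.02 for 17 forebrain cortex genes, -0.05 for 13 striatum genes, 0.11 for 8 choroid plexus genes and -0.03 for 21 endothelium and pericyte genes. Meningeal and fibroblast genes had a median of -0.01 over 24 genes. Of these, Ccn2, a matrix-associated growth factor, differed by 0.69 ± 0.24 (95% interval 0.16 to 1.22), and Ogn, a small proteoglycan, by -0.34 ± 0.16 (95% interval -0.68 to -0.00041). A second Ogn probe set differed by -0.03 ± 0.22.

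**Figure D3:**
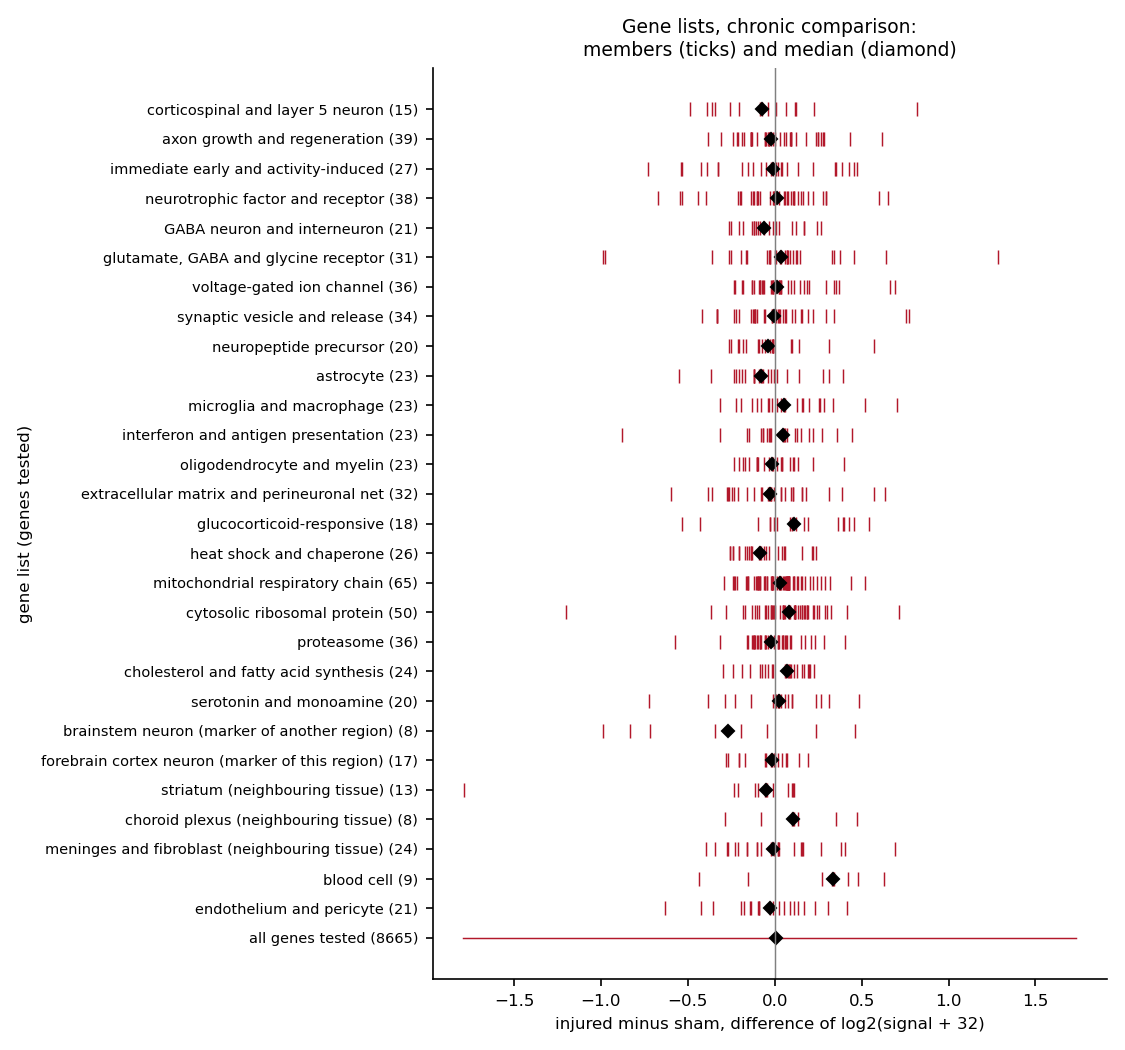
Difference of log2(signal + 32), injured minus sham, for the members of 28 gene lists (ticks, 1 per gene) with the list median (diamond). Numbers in brackets are genes tested, and the line in the last row spans the range of all 8665 genes. List medians lay between -0.27 (brainstem) and 0.33 (blood cell), around the median of all genes.

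Slc17a6, the vesicular glutamate transporter VGLUT2 of thalamic and brainstem neurons and of some deep cortical neurons, was 1 of the 2 higher members of the brainstem list. It had 1126, 1128, 1176 and 986 at 28 d and 1097, 1136, 1074 and 1398 at 3 months in injured cortex, against 787 and 978 at 28 d and 710.4 at 3 months in sham cortex. All 8 injured samples lay above all 3 sham samples, the nearest pair being 986 and 978. The difference was 0.46 ± 0.15 (95% interval 0.14 to 0.78), adjusted p = 0.991 in limma. Naive cortex had 647, 650.3, 585 and 283, below both, and naive raphe 7014 to 9112. The part of tissue from other regions in this difference was not tested, and the brainstem sums are given above. In the fit with naive samples, injured cortex exceeded naive cortex by 1.09 ± 0.19 (95% interval 0.70 to 1.48), adjusted p = 0.0443, and sham cortex exceeded naive cortex by 0.63 ± 0.23 (95% interval 0.14 to 1.12), adjusted p = 0.333. The 2 comparisons share the naive samples.

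The 2 times that make up the chronic window differed in what they could show. At 28 d, with 4 injured and 2 sham samples, 0 of 17246 probe sets were called (0.0%) and 520 had an unadjusted p under 0.05 in limma, with 335 higher and 185 lower. Without replicate 2 of the 28 d sham samples, 10 were called at 28 d. At 3 months, with 4 injured samples and 1 sham sample, 23 probe sets were called (0.133%), 20 higher and 3 lower. The lone sham sample was there assumed to vary like the other groups. In the chronic comparison 28 d carries 62.5% of the weight and 3 months 37.5%.

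In most of the 3 months calls the single sham sample stood apart from other uninjured cortex. The calls were chosen by their difference from this sample, so its place among them is given as a description. In 17 of the 20 probe sets called higher, that sham sample lay below all 6 other uninjured cortex samples (2 sham of 28 d and 4 naive), which it did for 13.5% of all probe sets tested. In 2 of the 3 called lower it lay above all 6, as it did for 13.7% of all probe sets. When the 3 sham samples of both times served together, 19 probe sets were called, and 2 of them were among the 23. Quantile normalization left 15 calls and a larger added constant left 7, and 58 were called with the left-out sham sample included. Of the 23, 15 had a gene symbol. They are named here after their values were seen.

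Hgf, hepatocyte growth factor, was the only member of the gene lists among the calls that lay on a gene's brightest probe set. It had 289, 222, 229 and 158 in injured cortex at 3 months, against 28.1 in the sham sample of 3 months. The 28 d sham samples had 181 and 167 and naive samples 185, 209, 142 and 90.0, so the difference at 3 months of 2.07 ± 0.30 (95% interval 1.41 to 2.73), adjusted p = 0.0304 in limma, was measured against 1 sham sample that was low. The call held in 1 of 9 other settings. Fn1, the matrix protein fibronectin, differed at 3 months by 1.75 ± 0.22 on the called probe set, while its 2 other probe sets differed by -0.15 ± 0.69 and 0.050 ± 0.22. Fstl1, a secreted glycoprotein, had 503, 560.5, 558 and 511 in injured samples of 3 months, against 93.8 in the sham sample, beside 728 and 644 in sham samples of 28 d. Chdh, the mitochondrial choline dehydrogenase, had 771, 707, 619.7 and 556 against 92.5, with 454 and 559 in sham samples of 28 d. Myh6, a cardiac myosin heavy chain, had 799.9, 876, 825 and 708.5 against 266, with 694 and 757 in sham samples of 28 d. In each of these 3 genes the 3 months sham sample lay below both sham samples of 28 d. Fstl1 was called on 1 of its 3 probe sets, which is not its brightest, and the other Myh6 probe set differed at 3 months by 0.03 ± 0.34.

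Of the 3 probe sets called lower at 3 months, Nkd1, an inhibitor of Wnt signalling, on a probe set that is not its brightest had 245, 54.5, 75.5 and 82.0 in injured samples, against 2079.6 in the sham sample, a difference of -4.01 ± 0.54 (95% interval -5.21 to -2.81). None of the other 10 chronic cortex samples exceeded 334. This Nkd1 probe set lay above the 40th percentile of the array in 1 injured and 3 sham samples. It thus entered the test through the group where it was higher, and its difference is a description. The brightest Nkd1 probe set differed at 3 months by -0.49 ± 0.41. Ndufs8, a subunit of respiratory complex I, had 393, 537, 597 and 357, against 1709 in the sham sample, on a probe set that is not its brightest. The brightest differed at 3 months by -0.04 ± 0.19. In all 3 probe sets the injured samples of 3 months lay below both sham samples of 28 d. In Zfp276, a zinc finger protein, the sham sample of 3 months lay among the other uninjured samples. Zfp276 had 47.3, 39.2, 49.0 and 56.5 in injured samples of 3 months, against 280.0 in the sham sample of 3 months. At 28 d it had 329, 281.5, 313 and 254 in injured samples, against 382 and 281.5 in sham samples, so here the injured samples of 3 months stood apart. Naive samples spanned 51.4 to 300.2, down to the level of the injured ones. It differed at 3 months by -1.97 ± 0.24 (95% interval -2.51 to -1.43), adjusted p = 0.0168 in limma, and the call held in 6 of 9 other settings.

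The probe set rc_AI639356_at, which has no gene symbol, kept its call at 3 months in 9 of 9 other settings. It had 582.5, 678, 1119.7 and 841 in injured samples of 3 months, against 68.2 in the sham sample of that time. At 28 d it had 44.1, 71.8, 56.2 and 68.4 in injured samples, against 39.1 and 62.9 in sham samples. Naive samples, at 842, 443, 581 and 498, overlapped the injured samples of 3 months. The difference at 3 months was 3.02 ± 0.33 (95% interval 2.30 to 3.75). The probe set lay above the 40th percentile of the array in 4 injured and 0 sham samples, so its difference is a description. Deviations from the mean of the 11 samples correlated at 0.0088 to 0.16 among the 4 injured samples of 3 months and at -0.12 to -0.042 between them and the sham sample of 3 months. The labels give no array batch for these samples, and its part was not tested.

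**Figure D4:**
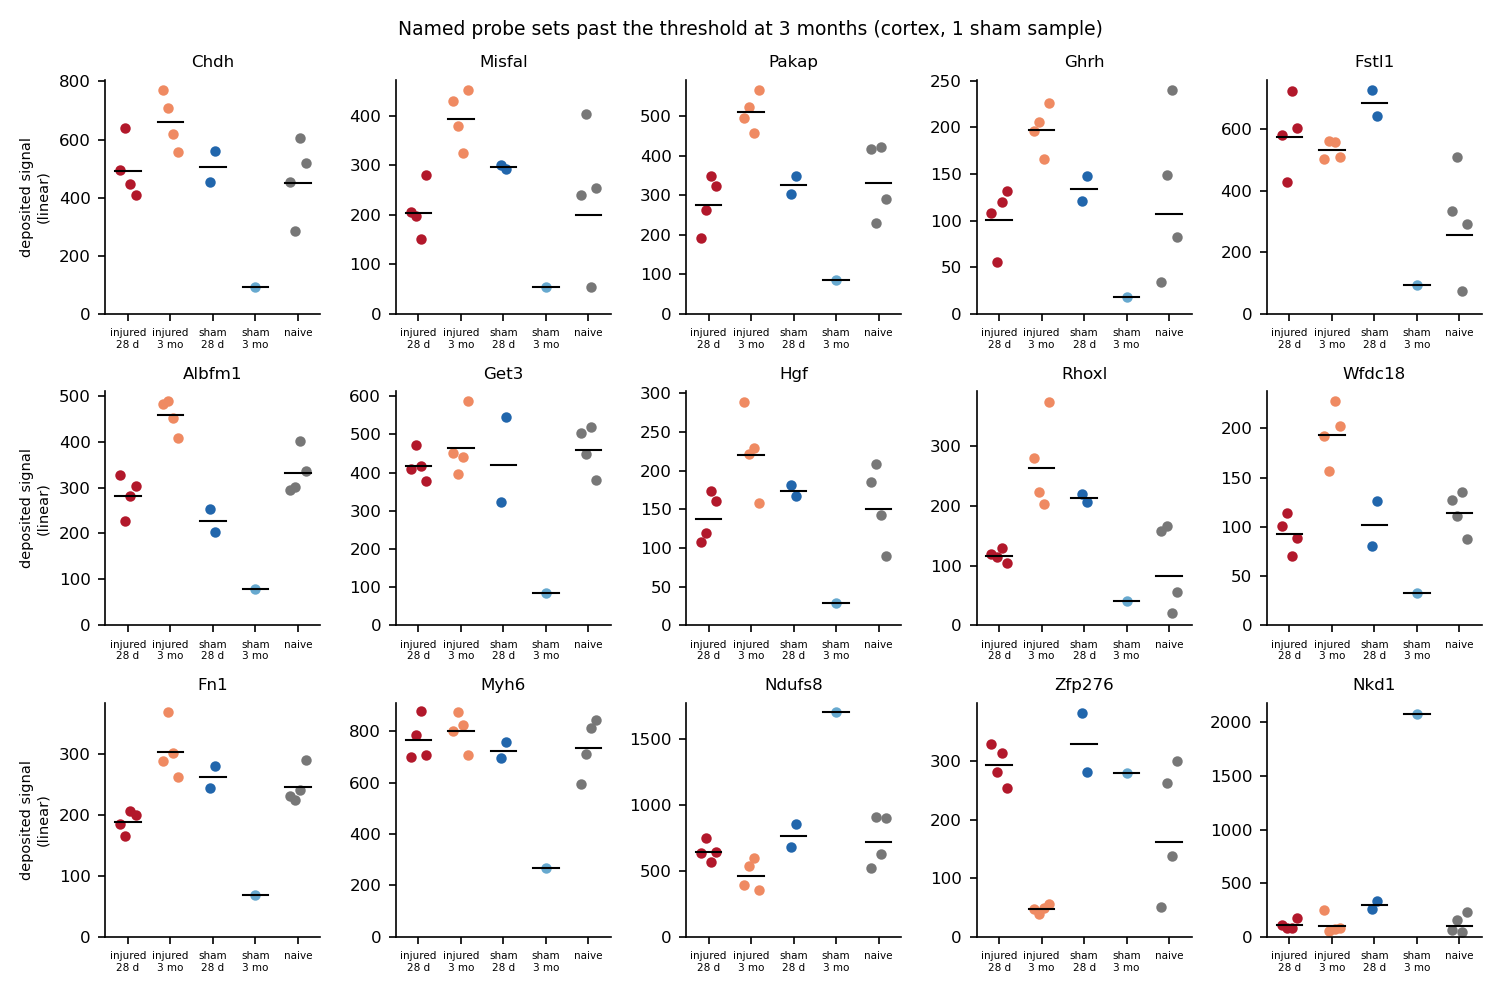
Deposited signal of each sample for the 15 probe sets with a gene symbol that passed an adjusted p of 0.05 at 3 months, ordered from the most positive to the most negative difference. Points are samples and bars group means on the log2(signal + 32) scale. In most panels the single sham sample of 3 months lies below the sham samples of 28 d, and in the Zfp276 panel the 4 injured samples of 3 months lie apart.

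The change between the times was tested directly as the 3 months effect minus the 28 d effect. In limma 0 of 17246 probe sets were called (0.0%), with 1027 at an unadjusted p under 0.05 and a smallest adjusted p of 0.0637. By their brightest probe sets, the 5 genes with the smallest p were Misfal, Rhoxl, Chdh, Albfm1 and Hgf. This difference contains the 3 months effect and its single sham sample, so it is no separate support for that effect. The sham sample of 3 months had 54.0 for Misfal, 40.5 for Rhoxl and 79.6 for Albfm1. Sham samples of 28 d had 300 and 292, 221 and 206.5, and 254 and 203. Rhoxl lay above the 40th percentile of the array in only 3 of the 11 samples. Misfal differed by 2.31 ± 0.28 at 3 months and -0.47 ± 0.22 at 28 d. Rhoxl differed by 2.03 ± 0.28 at 3 months and -0.73 ± 0.22 at 28 d, Albfm1 by 2.13 ± 0.23 and 0.28 ± 0.18, and Hgf by 2.07 ± 0.30 and -0.28 ± 0.23.

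Whether the chronic window differs from earlier times was tested in 35 cortex samples, as the chronic injury effect minus the effect over 4 h, 24 h, 7 d and 14 d. In limma 0 of 18871 probe sets were called (0.0%), with 1351 at an unadjusted p under 0.05 and a smallest adjusted p of 0.118. By brightest probe sets, Aldh3a1 had the smallest p, with a chronic effect of 0.75 ± 0.18 and an earlier effect of -0.29 ± 0.11, a difference of 1.04 ± 0.21 (95% interval 0.61 to 1.47). Mvb12a, a subunit of the ESCRT-I sorting complex, had effects of 1.00 ± 0.25 and -0.42 ± 0.16, and Chchd1, a mitochondrial ribosomal protein, 0.46 ± 0.18 and -0.52 ± 0.12. Myl12b, a myosin regulatory light chain, had effects of -0.18 ± 0.11 in the chronic window and 0.39 ± 0.07 earlier, on the brighter of 2 probe sets. The dimmer one differed in the chronic window by 0.63 ± 0.58. Slc3a2, the heavy chain of amino acid transporters, had -0.35 ± 0.17 and 0.51 ± 0.11. In each of the 5 the sign of the chronic effect was opposite to that of the earlier one, and the adjusted p ran from 0.118 to 0.275 in limma. The 5 genes were chosen by this difference, which favours opposite signs. It contains the chronic samples, so it is no separate support for the chronic effect of Aldh3a1. Slc3a2 signals were 1938, 3187, 1722.5 and 2307 in injured samples of 3 months, against 4174 in the sham sample of 3 months. Injured samples of 28 d had 3823, 4131, 4128 and 3423, against 4007 and 3843 in sham samples of 28 d. Among these injured and sham samples, those injured at 3 months were the low ones. Naive samples, at 3682, 2386.5, 2003 and 2781, reached the same low level.

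Against the raphe, the chronic effect in cortex minus that in raphe was tested in 22 samples, without the raphe sham sample of 3 months whose expression resembles cortex. In limma 0 of 18485 probe sets were called (0.0%), with 859 at an unadjusted p under 0.05 and a smallest adjusted p of 0.45. Spp1, which encodes osteopontin, had an effect of -0.71 ± 0.16 in cortex and 0.47 ± 0.16 in raphe. Its cortex signals were between 19.4 and 87.4 (median 58.6) in injured samples, against 87.0, 81.8 and 117 in sham samples, below the 40th percentile of the array in all 11 samples, so its cortex value describes a signal at the floor. Cyp24a1 had effects of 1.25 ± 0.32 in cortex and -0.75 ± 0.32 in raphe, a difference of 1.99 ± 0.45 (95% interval 1.05 to 2.94). Pgap2, which acts in the synthesis of GPI anchors, had 0.34 ± 0.14 and -0.60 ± 0.14, and Itpr3, a calcium release channel of the endoplasmic reticulum, 0.41 ± 0.13 and -0.42 ± 0.13. Hist4h4, a histone gene, had -0.25 ± 0.24 in cortex and 1.25 ± 0.24 in raphe. The adjusted p was 0.45 for Spp1 and 0.661 for the other 4 genes in limma. These genes were chosen by this difference, which contains the chronic cortex samples, so it is no separate support for the chronic effect of Cyp24a1.

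Naive cortex gave a second reference, 4 samples taken without surgery. Between the 8 chronic injured samples and naive cortex 11 of 17770 probe sets were called in limma (0.0619%), 8 higher and 3 lower. Between the 3 sham samples and naive cortex 1 was called (0.00563%), the probe set rc_AA956989_at without a gene symbol, lower in sham by a difference of -1.40. At an unadjusted p under 0.05 there were 2259 and 1959 probe sets. The comparisons share the naive samples, and the injured and sham samples are those of the chronic comparison. The genes in the next sentences are named after their values were seen.

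The 11 probe sets were chosen by injured against naive cortex, and sham values are set beside them as a description. Cd82, a tetraspanin, had signals between 122 and 245 (median 156) in injured samples and 152, 325 and 222 in sham samples, against 804, 504, 534 and 816.5 in naive samples. It differed from naive by -1.85 ± 0.20 in injured and -1.42 ± 0.25 in sham cortex, and its injured call, adjusted p = 0.00265, held in 18 of 18 other settings. The calls of the other 10 held in 1 to 16 of 18, that of Slc17a6 in 3. The called Cd82 probe set is not the brightest, and its 2 others differed from naive by -0.09 ± 0.21 and -0.42 ± 0.10 in injured cortex. Plcd3, a phospholipase C, differed by -2.09 ± 0.36 in injured and -2.56 ± 0.44 in sham cortex on 1 of 4 probe sets, not the brightest, and the 3 others differed by -0.58 to 0.11 in injured cortex. Bmp7, a bone morphogenetic protein, had signals between 100.1 and 276.5 (median 217) in injured samples and 363, 161 and 309.8 in sham samples, against 39.3, 65.1, 61.5 and 52.8 in naive samples, so that every operated sample exceeded every naive one. It differed by 1.39 ± 0.24 in injured and 1.78 ± 0.30 in sham cortex.

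Hes5, a transcription factor downstream of Notch, was called on 1 of 3 probe sets, not the brightest. That probe set had signals between 29.7 and 111 (median 59.4) in injured samples and 77.6, 345 and 202 in sham samples, against 259, 302, 298.5 and 329.5 in naive samples. Its differences were -1.80 ± 0.26 (95% interval -2.35 to -1.24) in injured and -0.62 ± 0.33 (95% interval -1.31 to 0.07) in sham cortex. The 2 other Hes5 probe sets differed from naive by -0.38 ± 0.14 and 0.02 ± 0.17 in injured cortex. The called probe sets of Hes5, Cd82 and Plcd3 lay above the 40th percentile of the array in only 2, 2 and 1 of the 11 chronic samples and were not tested between injured and sham. Other probe sets of these genes were tested, and for Hes5 they differed between injured and sham by -0.42 ± 0.15 and 0.15 ± 0.17. Wdr26, a subunit of a ubiquitin ligase, had signals between 1980.0 and 2932 (median 2569) in injured samples and 2921, 2478.5 and 1699.8 in sham samples, against 1281, 1442, 1252 and 1176 in naive samples, and differed by 0.93 ± 0.15 in injured and 0.83 ± 0.18 in sham cortex. Its 4 other probe sets differed by -0.07 to 0.42 in injured cortex. Rasl11a, a small GTPase, Sult1a1, a sulfotransferase, Krt4, a keratin, and C1h15orf40 differed from naive by 1.60, 1.14, 1.35 and 0.82 in injured cortex and by 1.37, 0.85, 1.00 and 0.62 in sham cortex. The brighter Sult1a1 probe set differed by 0.50 ± 0.16 in injured cortex and the other C1h15orf40 probe set by 0.18 ± 0.22. The count of 11 fell to 1 without naive replicate 2 or without injured replicate 4 of 3 months, and was 23 without naive replicate 4. Time of sampling and surgery differ together between naive and operated samples and cannot be told apart.

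**Figure D5:**
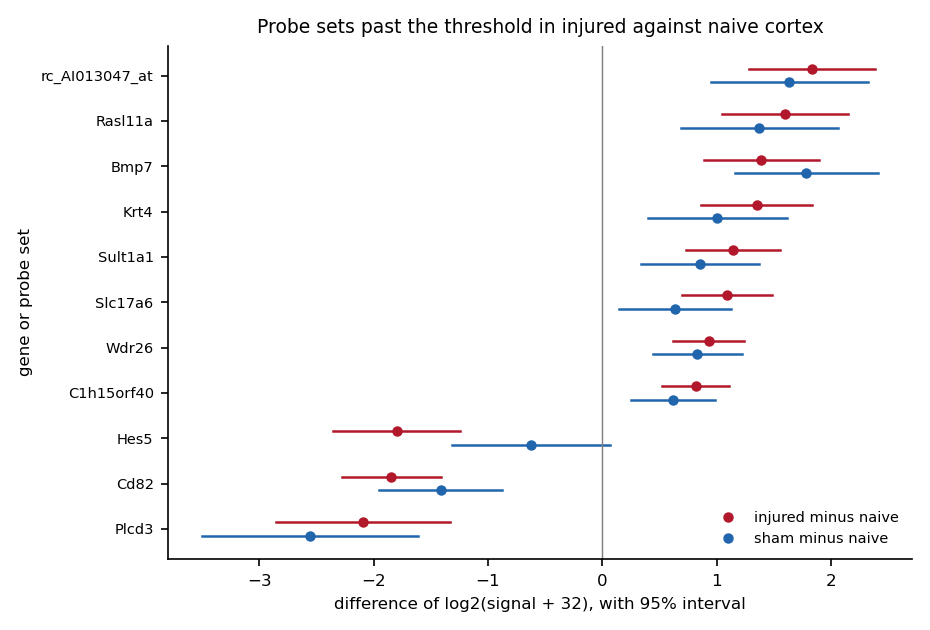
Difference of log2(signal + 32) from 4 naive cortex samples, with 95% interval, for chronic injured cortex (red, 8 samples) and chronic sham cortex (blue, 3 samples), in the 11 probe sets that passed an adjusted p of 0.05 between injured and naive cortex. Cd82, at -1.85 in injured and -1.42 in sham cortex, is an example, and the sham interval of Hes5 reaches 0.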

How the data were processed

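RNA of rat somatomotor cortex was measured on 3 types of array. The deposited values are intensity values, 1 linear signal per probe set, which the authors had scaled per array, since the 2 percent trimmed mean was near 800 on each. No source used here names the software that made them. Of 26202 probe sets without controls, 18178 had 1 gene symbol, 391 several and 7633 none. Groups came from titles and descriptions. The number of arrays limits the precision.

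Values were used as log2(signal + 32). Probe sets entered a fit when at least 3 of its samples lay above the array's 40th percentile. Fits used limma 3.58.1 in R 4.3.3 within each array type, with time as a block in the chronic comparison (8 residual degrees of freedom), two-sided moderated tests, Benjamini-Hochberg adjustment over the 3 types and a threshold of 0.05. The 28 d, 3 months and time-difference comparisons used 4 group means of the 11 samples. The fits were tested on simulated data. The brightest probe set stands for a gene. Named are the 5 genes a direction with the smallest p, up to 4 members of each of 28 lists, and 5 genes for each of 3 differences of effects. Comparisons, members and lists were chosen with earlier results of these data known. Alternatives changed the added constant, filter, normalization, variance prior, weights, adjustment, reference and samples.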

Additional observations from a re-analysis of the deposited data

Results flagged for a closer look

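In groups of 4 samples, 18 sets of values held 1 sample far from the other 3, with a gap over the group's range above Dixon's 95% critical value. Chance flags about 1 in 20 groups, and 91 genes were examined in both injured groups, those named against naive cortex also in naive samples. The ratio is given for each.

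Among injured samples of 28 d, replicate 1 was low for Glra1 (0.892, signal 28.3 beside 137 to 159). Replicate 2 was low for Dusp1 (0.86, 1029 beside 2324 to 2652), Igfbp5 (0.885, 731 beside 1390 to 1510) and Hist4h4 (0.833). Replicate 3 was low for Slfn2 (0.891, 159.6 beside 242 to 254), Nmb (0.863, 246 beside 379 to 405) and Plcd3 (0.86). Replicate 4 was low for Ctss (0.972, 5400.5 beside 7782 to 7864) and high for Prph (0.893) and Cd82 (0.928, 245 beside 122 to 129).

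Among injured samples of 3 months, replicate 1 was high for Glra1 (0.896, 306 beside 58.6 to 72.0) and Hes5 (0.857) and low for C1h15orf40 (0.886). Replicate 2 was low for Ndufb11 (0.976, 2579 beside 4148 to 4196) and high for Plcd3 (0.843). Replicate 3 was low for Unc13b (0.952, 120.4 beside 232 to 239). Among naive samples, replicate 4 was low for Slc17a6 (0.871) and high for Rasl11a (0.885).

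The left-out sham sample of 3 months held signal of brainstem genes above the sham samples used, 6223.1 for Slc17a6 beside 710.4 to 978, and 1406.9 for Prph beside 240.3 to 376.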

How the results depend on the processing

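The chronic count stayed at 0 in 19 of 24 settings, including quantile normalization, other added constants, filters, array weights and a variance prior with trend. It was 2 with adjustment within each array type, 2 with the left-out sham sample included, 5 with naive in place of sham, and 0 to 1 when samples were left out in turn. The count at 28 d was 0 to 10 when samples were left out. At 3 months it was 7 to 22 when samples were left out, 58 with the left-out sham included, 15 with quantile normalization, 7 with the larger added constant and 15 with the trend. The chronic minus earlier count was 0 to 4 when samples were left out. Injured against naive gave 7 with quantile normalization, 21 with the larger constant and 1 to 23 when samples were left out. Sham against naive gave 0 with the larger constant, 0 with the trend and 0 to 2 when samples were left out. The cause was not tested. Of 155 alternative settings over the 8 comparisons, 118 were chosen after seeing the data. The counts for 3 months minus 28 d and cortex minus raphe stayed at 0 throughout.

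With a replicate block, 0 probe sets were called and 531 had an unadjusted p under 0.05. Same-numbered samples of 28 d correlated at 0.155 and -0.0785 in their deviations, and the labels do not pair them. Of 3575 values of named genes in the chronic comparison, 79 changed sign and 8 passed the threshold, and 44 of 672 list medians moved. The chronic comparison had 3 sham samples, 1 of them alone at 3 months. The median half-width of the unadjusted interval was 0.430, so for a typical probe set a smaller difference could not be told from 0. The adjusted threshold asks for more, and weak probe sets are compressed by the added constant.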
